A study of Mus musculus with 2 samples.

Results

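The genes described here are the 63 replication-dependent histone genes of the 2 large mouse histone gene regions, examined for peaks of the chromatin protein TOBF1. They were taken by name and place, not by any measured value: all protein-coding RefSeq genes with a symbol starting H1f, H2ac, H2bc, H3c or H4c in the histone gene regions of chromosome 13 (53 genes between 21 and 24 Mb) or chromosome 3 (10 genes, bases 96219885 to 96270192), out of 21883 protein-coding genes on the chromosomes. They comprise 6 genes of linker histone H1, 17 of H2A, 16 of H2B, 12 of H3 and 12 of H4. This set of genes was chosen with earlier results of these data known, so it was not picked blind. TOBF1 is the product of A830080D01Rik. It was precipitated with an anti-GFP antibody from R1/E mouse embryonic stem (ES) cells kept in serum medium with LIF, after crosslinking with formaldehyde and DSG. Both libraries of the series, 1 precipitated and 1 input without antibody, came from cells that carry tagged TOBF1 on a bacterial artificial chromosome (BAC), a cloned stretch of genome holding the gene. Only the precipitated library has a peak list analysed here. No value therefore has a replicate error, the number of reads is unknown, and no test between conditions could be made. No precipitation from cells without the tag was analysed, so the counts are of peaks as the authors called them.

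Histone proteins package DNA: H2A, H2B, H3 and H4 form the nucleosome core and H1 binds the DNA between cores. The genes described here are switched on in S phase, when new DNA needs new histones. They are short, mostly lack introns, lie close together, and their messages end in a stem-loop in place of a poly(A) tail. H2A and H2B genes often stand as divergent pairs that start from a shared stretch of DNA. Most members serve every dividing cell, but H1f6 (also called H1t), H2ac1 (TH2A) and H2bc1 (TH2B) are testis-type genes, known for their use in male germ cells.

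The stretches before the starts of 9 genes are shown because the results below turn on where peaks lay relative to them. The sequences are those of RefSeq on GRCm38.p6, 5′ to 3′ on the strand of the named gene, and end at the base before its start. Capitals mark the motifs searched on both strands. The TATA box was searched as TATAAA and the site of the factor NF-Y as CCAAT. The octamer read by Oct factors was searched as ATTTGCAT, the E box as CACGTG and the GC box read by Sp factors as GGGCGG. The cAMP response element was searched as TGACGTCA, and the AC box known from H1 genes, added after the data were seen, as AAACACA. None of these motifs contains another.

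The first pair of stretches lies between divergent H2A and H2B genes. The gap of 163 bases between H2ac15 and H2bc15 (chr13:21753913-21754075, plus strand) lay wholly inside a peak, while the 250 bases before H2ac1 in the gap it shares with H2bc1 (chr13:23934187-23934436, plus strand) had none.
H2ac15 to H2bc15: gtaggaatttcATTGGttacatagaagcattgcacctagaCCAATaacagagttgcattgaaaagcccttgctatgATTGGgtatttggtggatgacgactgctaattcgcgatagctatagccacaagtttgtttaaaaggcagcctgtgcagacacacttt
H2bc1 to H2ac1: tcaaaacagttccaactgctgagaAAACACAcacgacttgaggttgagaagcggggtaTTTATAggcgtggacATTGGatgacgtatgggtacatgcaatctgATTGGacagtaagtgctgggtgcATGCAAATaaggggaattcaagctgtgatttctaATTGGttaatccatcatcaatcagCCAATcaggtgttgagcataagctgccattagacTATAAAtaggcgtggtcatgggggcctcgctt

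The next stretches, of 150 bases each, lie before 4 H1 genes. Those of H1f5 (chr13:21780626-21780775, minus strand) and H1f1 (chr13:23763518-23763667, plus strand) held no base of a peak although the genes carried 2 of the 3 highest scores among members. Only the last 33 bases before H1f3 (chr13:23554882-23555031, plus strand) lay in a peak. The testis-type H1f6 (chr13:23695661-23695810, plus strand) had none.
H1f5: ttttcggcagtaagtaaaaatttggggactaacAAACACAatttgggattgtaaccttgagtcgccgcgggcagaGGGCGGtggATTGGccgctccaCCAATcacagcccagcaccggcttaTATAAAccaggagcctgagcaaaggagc
H1f3: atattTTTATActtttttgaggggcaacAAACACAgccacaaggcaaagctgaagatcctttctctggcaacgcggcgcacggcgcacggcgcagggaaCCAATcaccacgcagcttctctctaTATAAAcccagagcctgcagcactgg
H1f1: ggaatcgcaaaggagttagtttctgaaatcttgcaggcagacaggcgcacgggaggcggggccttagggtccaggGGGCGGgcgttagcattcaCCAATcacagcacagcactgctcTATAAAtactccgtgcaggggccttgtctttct
H1f6: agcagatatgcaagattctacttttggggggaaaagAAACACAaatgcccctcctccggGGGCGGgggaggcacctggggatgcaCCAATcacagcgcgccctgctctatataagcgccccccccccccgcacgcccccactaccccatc

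The last stretches come from H3 and H4 genes. All 150 bases before H3c8 (chr13:23535268-23535417, plus strand) lay in a peak. None did before H4c9 (chr13:22041363-22041512, minus strand), whose strongest peak lay behind the gene, or before H4c2 (chr13:23756787-23756936, plus strand), the H4 gene without a peak.
H3c8: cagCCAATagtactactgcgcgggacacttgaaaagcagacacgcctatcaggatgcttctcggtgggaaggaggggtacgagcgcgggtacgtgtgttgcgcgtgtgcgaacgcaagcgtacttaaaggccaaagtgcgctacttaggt
H4c9: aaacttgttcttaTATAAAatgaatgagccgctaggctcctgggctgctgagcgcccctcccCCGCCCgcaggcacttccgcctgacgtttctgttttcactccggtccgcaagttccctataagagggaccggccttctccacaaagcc
H4c2: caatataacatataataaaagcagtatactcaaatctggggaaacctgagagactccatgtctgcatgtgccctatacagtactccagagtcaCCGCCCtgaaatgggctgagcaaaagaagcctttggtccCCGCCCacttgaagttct

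Nearly all histone genes of these regions had a TOBF1 peak next to them. A peak was counted at a gene when its midpoint was at most 1 kb from the start or from the last base of the gene. By this rule 57 of the 63 members had a peak (90.5%, exact 95% Clopper-Pearson interval 80.4 to 96.4%), against 585 of all 21883 protein-coding genes (2.67%) and 528 of the 21820 that are no members (2.42%). Intervals cover counting error only, and neighbouring genes share peaks, so the members are not independent. Members made up 0.288% of protein-coding genes and 9.74% of those with a peak at an end. The members are short, with a median length of 492 bp. Of 1519 other protein-coding genes of at most 1000 bp, 7 had a peak (0.461%). These were matched to the members in no other way, such as their spacing, and a part of gene length was not tested.

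The score of a peak is the authors' own value, taken to be the −log10 of a q-value, and is used only to describe and rank peaks within this list. The 75 distinct peaks at members were of modest score. Their median was 5.40 (quartiles 4.15 and 8.03, range 2.25 to 22.6), below the 7.43 of the 577 peaks at other protein-coding gene ends and the 10.0 of all 12012 peaks on chromosomes. They were 11.5% of the 652 peaks at protein-coding gene ends but 0.624% of all chromosome peaks. Of the 75, 10 reached the median score of the whole list, 9.97. With only such peaks 12 of 63 members kept a peak (19.0%), against 204 of all protein-coding genes (0.932%). Widths were ordinary, with a median of 227 bp against 216 bp over all peaks.

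The H1 genes, which encode the linker histones, carried the highest scores. H1f5 (chromosome 13, 21779832 to 21780625) had the top peak of all members, with a score of 22.6 and a width of 575 bp (21779439 to 21780013), centred 106 bp past its last base. It ranked 61st among the 585 genes with a peak at an end. H1f3 had a peak of 10.7 centred 34 bp inside its start and another of 12.4 centred 132.5 bp past its last base. H1f1 had a peak of 12.4 centred 139.5 bp inside its start. H1f2 (9.41) and H1f4 (6.49) each had a peak just past the last base, at 83.5 and 154 bp. Thus 4 of these 5 genes had a peak behind the gene, and H1f1 had its peak near the start. The testis-type H1f6 had none. The median of the highest score per gene was 12.4 in the 5 H1 genes with a peak, against 7.37 in H2A, 7.62 in H2B, 7.23 in H3 and 7.70 in H4. The ranges overlapped: H1f4 and H1f2 lay within those of all core histone types, and the difference was not tested.

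**Figure D1:**
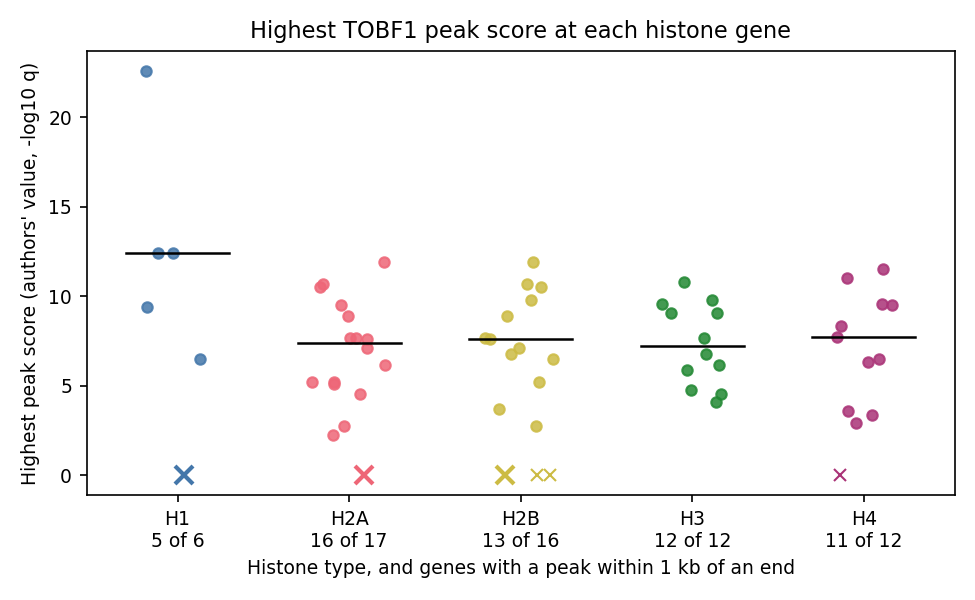
Highest score of the peaks within 1 kb of each of the 63 histone genes, by histone type. The vertical axis is the authors' value, taken to be −log10 q. Circles are genes, black lines medians over genes with a peak, and crosses at 0 genes without a peak, large ones testis-type. All 12 H3 genes have a peak, H1f5 stands highest at 22.6, and the 4 core types overlap.

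Among H2A genes, whose protein forms a dimer with H2B in the nucleosome, 16 of 17 had a peak (94.1%, interval 71.3 to 99.9%). The highest scores per gene were 11.9 at H2ac7, 10.7 at H2ac15, 10.5 at H2ac23, 9.53 at H2ac24 and 8.91 at H2ac13. H2ac10 (7.68), H2ac12 (7.67), H2ac8 (7.62) and H2ac22 (7.12) lay near the median of this type. On chromosome 3, H2ac19 (6.14), H2ac20 and H2ac21 (both 5.21, the same peak) and H2ac18 (5.11) were lower, as were H2ac4 (4.56), H2ac11 (2.73) and H2ac6 (2.25) on chromosome 13. The gene without a peak was the testis-type H2ac1. At 5 of these genes (H2ac7, H2ac23, H2ac13, H2ac12 and H2ac8) the highest peak was shared with the divergent H2B partner and lay on the partner's side of the start.

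Of the 16 H2B genes 13 had a peak (81.2%, interval 54.4 to 96.0%). H2bc7 (11.9), H2bc15 (10.7), H2bc23 (10.5) and H2bc3 (9.77) were highest, followed by H2bc13 (8.91), H2bc12 (7.67), H2bc8 (7.62) and H2bc22 (7.12). H2bc9 (6.79), H2bc6 (6.49), H2bc21 (5.21), H2bc4 (3.71) and H2bc11 (2.73) were lower. The 3 without a peak were the testis-type H2bc1, H2bc14 and H2bc18. RefSeq gives H2bc6, H2bc22, H2bc4, H2bc23 and H2bc21 lengths of 37455, 14079, 8282, 3788 and 2667 bp, so their far ends lie away from the histone coding part. H2bc21 was counted through a peak centred on H2ac21, and H2bc6 through one centred 499 bp outside it and 154 bp past H1f4.

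All 12 H3 genes had a peak (interval 73.5 to 100%). With shared peaks counted at every member within 1 kb, they had the most peaks per gene, 2.42 on average against 1.00 in H1, 1.71 in H2A, 1.62 in H2B and 1.83 in H4. H3c10 had 5, among them peaks centred 59 and 295.5 bp past H2ac13, nearer to that gene than to H3c10. Of peaks nearest to one of the 12 H3 genes, 7 lay downstream, 6 within, 5 upstream and 3 at a gene without a strand. At the 12 H4 genes these counts were 10, 8, 0 and 1. The difference was not tested. The highest scores were at H3c14 (10.8), H3c3 (9.77), H3c1 (9.55), H3c10 (9.08) and H3c11 (9.05). H3c8 (7.68), H3c7 (6.79), H3c15 (6.14), H3c4 (5.86), H3c13 (4.74), H3c2 (4.56) and H3c6 (4.07) followed. H3c4 had the widest peak of all members, 823 bp, running over its last base. H3c6, the longest H3 gene at 911 bp, had 3 narrow peaks inside it and none outside.

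Among H4 genes, whose protein pairs with H3, 11 of 12 had a peak (91.7%, interval 61.5 to 99.8%). H4c14 (11.5) and H4c9 (11.0) led, and H4c1 (9.55), H4c18 (9.53), H4c3 (8.36), H4c11 (7.70), H4c12 (6.49) and H4c8 (6.31) followed. H4c17 (3.60), H4c4 (3.37) and H4c6 (2.94) had only weak peaks. H4c2 was the H4 gene without a peak. With the few genes per type and their shared peaks, the intervals of all 5 types overlapped, and no order of the types in their share of genes with a peak can be read from these counts.

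None of the 3 testis-type genes had a peak, while 57 of the other 60 members did (95.0%, interval 86.1 to 99.0%). For 3 genes the interval of a share of 0 reaches 70.8%, so the contrast rests on few genes. H2bc1 and H2ac1 stand as a pair apart from the other members, and their nearest peak lay 170 and 171 kb away. H1f6 stands among members with peaks, 1539 bp from H4c3, and the nearest peak (score 8.36, counted at H4c3) was centred 1157 bp from its end. H1f6 was thus just outside the 1 kb limit, as was H2bc18 at 1327.5 bp. Members just inside it were H2ac24 (895.5 bp), H2bc21 (874 bp) and H2bc11 (864 bp). The nearest peaks of H4c2 and H2bc14 were 3.04 and 3.33 kb away.

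Peaks were often shared between neighbours. Of the 75 peaks, 43 lay within 1 kb of 1 member, 27 of 2 and 5 of 3. The commonest combination was 1 H2A with 1 H2B gene (13 peaks), followed by H2A with H3 (6). Divergent H2A and H2B genes start 163 to 280 bp apart, so a peak at either can lie within 1 kb of both by spacing alone. Peaks at 3 members each were those of H2bc13, H2ac13 and H3c10 (2 peaks), of H2bc7, H2ac7 and H3c4, of H4c9, H2ac11 and H2bc11, and of H2ac21, H2ac20 and H2bc21. When each peak was given only to the member with the nearest end, 48 members had one. Conversely, 37 of the 57 members with a peak had 2 or more (64.9%), against 76 of 528 other genes with a peak (14.4%).

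When each peak was set against its nearest member only, more peaks lay inside or behind a histone gene than in front of one. Strand came from the RefSeq promoter table, which held 58 of the 63 members; H3c7, H2bc4, H3c1, H2bc21 and H4c14 were left out of counts that need it. Of the 69 peaks whose nearest member had a strand, 35 were centred downstream of it (50.7%), 28 within it (40.6%) and 6 upstream (8.70%). The downstream ones lay a median of 258 bp past the last base, and 32 of the 35 lay within 500 bp. At other protein-coding genes, 136 of 456 peaks at gene ends were upstream (29.8%), 165 within (36.2%) and 155 downstream (34.0%). This difference was not tested. The count in front depends on that choice: over every pair of a peak and a member within 1 kb, 35 of 103 pairs were upstream (34.0%), 28 within (27.2%) and 40 downstream (38.8%), since a peak behind one gene is often in front of the next. With peaks within 1 kb merged, 13 lay downstream and 7 upstream of the nearest member. Of the 6 upstream peaks 5 were nearest to an H3 gene, and H3c3 had the strongest (9.77). That peak lay nearer still to the pseudogene H2ac5-ps, which is no member. H3c2, H3c13 and H3c15 had peaks in front of them only, of which those of H3c2 and H3c15 were nearer to the back of an H2A gene.

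**Figure D2:**
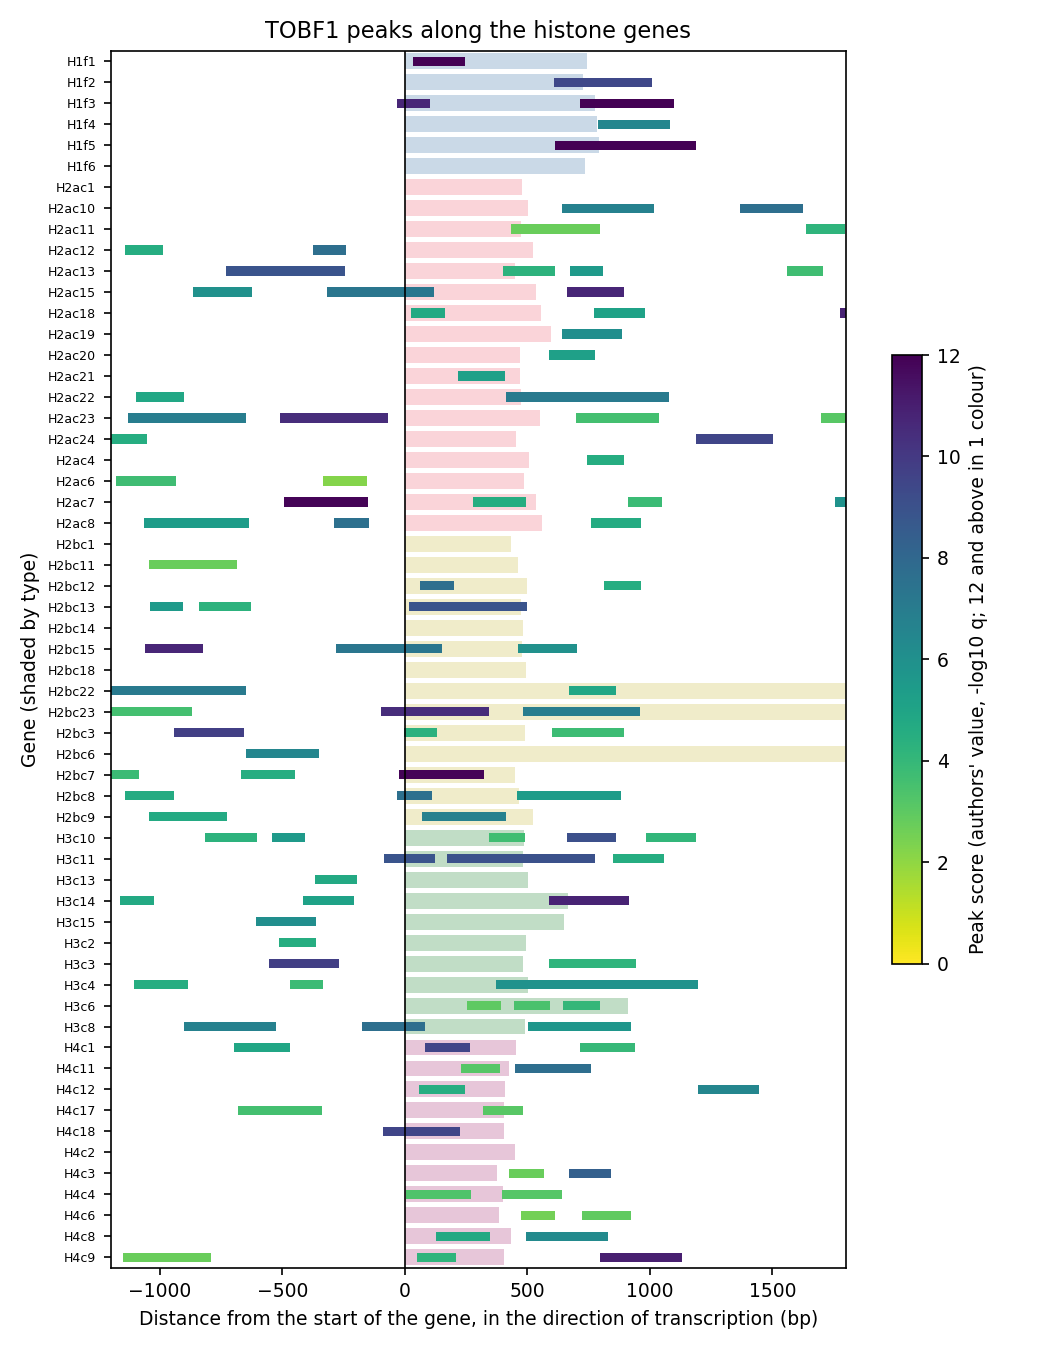
Peaks (bars, darker for higher score) along the 58 histone genes with a known strand, aligned at the start of the gene and drawn in the direction of transcription in bp; shading marks the gene and its type, and genes longer than the axis are cut off. At H1 genes 4 of the 6 peaks are centred behind and 2 inside the gene, and several bars in front of H2A genes lie in the divergent H2B neighbour.

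Base by base, cover was highest just behind the genes, and cover in front was similar to that in the middle of a gene. A peak covered the position 300 bp before the start in 9 of 58 members (15.5%), the position 100 bp before it in 4 (6.90%), the start itself in 10 (17.2%), and the positions 100 and 300 bp after it in 18 (31.0%) and 10 (17.2%). The highest cover on this axis was 750 bp after the start, in 28 members (48.3%). Counted from the last base, a peak covered that base in 15 members (25.9%) and the position 150 bp past it in 25 (43.1%). Averaged over 10 positions, cover was 14.1% in the 500 bp in front of the start and 32.8% in the 500 bp behind the last base. Further out the order was reversed. From 550 to 1000 bp, cover ran from 12.1 to 24.1% in front and from 1.72 to 8.62% behind, so this contrast depends on the span chosen. Over the 17491 protein-coding genes with a strand, a peak covered the start of 43 (0.246%), the last base of 43 (0.246%) and the position 300 bp past the last base of 79 (0.452%). Their averages were 0.267% in front and 0.387% behind, so cover was higher behind than in front there as well, and the difference between members and all genes in this respect was not tested. A peak centre lay within 1 kb of the start in 51 of the 58 members (87.9%), against 1.46% of all genes with a strand, and within 1 kb of the last base in 47 (81.0%), against 1.63%. For genes of this length these 2 windows overlap, so the counts at single bases show the place better.

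In clusters the back of a gene can be the front of the next. Of the members, 12 stand over 2 kb from the next member, and 10 of these had a peak. None of the 12 is an H2A gene, and the only H2B gene among them, H2bc14, had no peak. At the 11 with a strand, 9 peak centres lay within the gene, 9 downstream and 0 upstream. H3c6 alone held 3 of the centres within a gene. A peak covered the position 100 bp past the last base in 7 of the 11, the position 300 bp before the start in 0 and the start itself in 2. Averaged over the same 10 positions, cover was 0.909% in the 500 bp in front and 40.9% in the 500 bp behind. These averages rest on few genes and do not describe the divergent H2A and H2B genes.

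**Figure D3:**
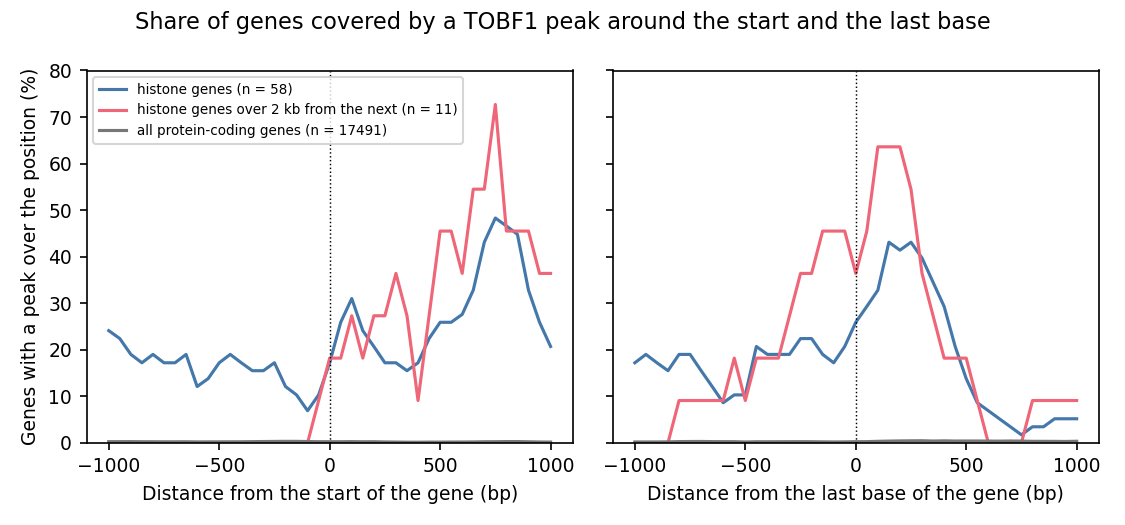
Share of genes with a peak over each position (every 50 bp) around the start (left) and the last base (right), with distance in bp in the direction of transcription, for histone genes, the 11 over 2 kb from the next member, and all protein-coding genes. In front of the histone genes the cover is lowest 100 bp before the start (6.90%), and it is highest 150 bp past the last base (43.1%) and 750 bp after the start (48.3%), while the line of all genes stays near 0.

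The gaps of the divergent pairs were partly covered. In 9 pairs of an H2A and an H2B gene with known opposite strands, the gap between the starts was 163 to 280 bp long. H2bc4 next to H2ac6 and H2bc21 next to H2ac20 had no strand and are left out of these counts. A peak of score 2.25 reached into the stretch between H2ac6 and H2bc4, and none into that between H2ac20 and H2bc21. A peak within 1 kb of both genes was found at 8 of the 9 pairs, which gaps this short allow by spacing alone. A peak centre lay in the gap itself at 1, the H2ac15 and H2bc15 pair whose gap is printed above. There a peak of 436 bp with a score of 7.29 covered all 163 bases. Peaks reached into 97 of 167 bases of the gap of H2bc23 and H2ac23, 32 of 179 at H2ac8 and H2bc8, and 25 of 173 at H2bc7 and H2ac7. The gaps of H2bc13 and H2ac13, H2ac22 and H2bc22, H2ac12 and H2bc12, H2ac11 and H2bc11, and the testis pair held no base of a peak. Over all 9 gaps 317 of 1849 bases lay in peaks (17.1%). By nearest member, H2A and H2B genes differed in place. Of the peaks nearest to an H2A gene 10 lay downstream and 3 within. Of those nearest to an H2B gene 4 lay downstream, 9 within and 1 upstream, and 2 were at a gene without a strand. Peaks in front of an H2A gene but nearer to its H2B partner count only at the partner here, and the difference was not tested. Of the peaks nearest to an H4 gene 10 lay downstream and 8 within, and 1 was at a gene without a strand.

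Promoter windows (250 bases before to 50 after the start) held the motifs known from histone genes in shares that differed by type. A CCAAT box was in 51 of 59 member windows (86.4%), namely in all 6 of H1, 17 of H2A, 15 of H2B and 10 of H3, but in 3 of 11 of H4, against 37.4% of all 32851 windows of the table. TATAAA was in 34 windows (57.6%, against 13.6%). The octamer ATTTGCAT, the site that Oct factors read in H2B promoters, was in 7 of 15 H2B and 6 of 17 H2A windows, which share gaps, and in 0 windows of the other types, against 1.74% of all. The GC box was in 23 member windows (39.0%, against 35.7%), namely in 4 of 6 of H1, 7 of 17 of H2A, 2 of 15 of H2B, 2 of 10 of H3 and 8 of 11 of H4. The element TGACGTCA was in 4 member windows (6.78%, against 1.79%). No member window held the E box CACGTG, found in 7.15% of all. The AC box AAACACA was in 5 of 6 H1 windows, H1f6 included, and not in that of H1f1, against 7.18% of all. A match here is a string of letters, not a shown site.

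**Figure D4:**
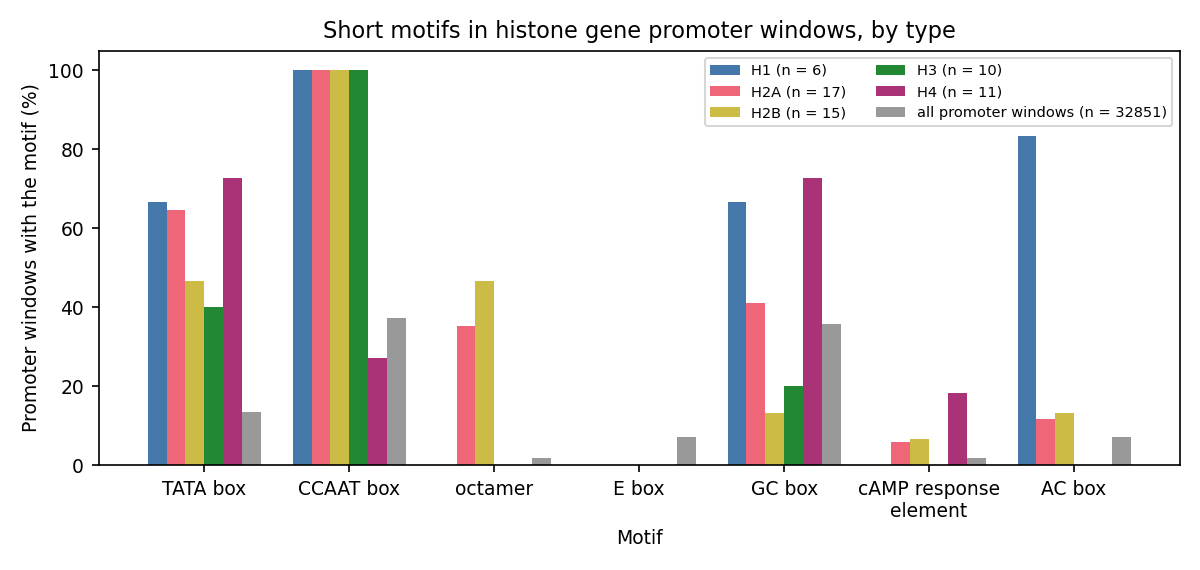
Share of promoter windows of 300 bases that hold each motif on either strand, in %, by histone type (coloured bars) and over all 32851 windows (grey). CCAAT is in all windows of H1, H2A, H2B and H3 and in 3 of 11 of H4, and the octamer only in windows of H2A and H2B among these types.

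A peak overlapped 23 of the 59 member windows (39.0%), against 0.603% of all windows. The motifs did not sort these windows plainly. CCAAT was in 21 of the 23 with a peak (91.3%) and in 30 of the 36 without (83.3%), TATAAA in 16 (69.6%) and 18 (50.0%), and the octamer in 5 (21.7%) and 8 (22.2%). TGACGTCA was in 0 and 4, and AAACACA in 1 and 8. Of the 9 windows with AAACACA, 5 belong to H1 genes.

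Members that resemble each other could share reads, and how the authors kept reads that fit several places is not given in the sources used here. Over the member windows, the longest run of identical bases shared with the window of another member that does not overlap it had a median of 15 bases. It reached 100 or more in 9 windows, among them H4c17 and H4c18 (285 bases), H3c14 and H3c15 (231) and H2ac18 and H2ac19 (219). All 9 belong to genes with a peak, as do 57 of all 63 members (90.5%). The 6 members without a peak had runs of 12 or 13 bases. Runs as short were also found at members with a peak, among them H1f5, H1f3 and H1f1 (13 bases each). Coding parts, which are more alike, were not compared, and the part of shared reads in the peaks was not tested.

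Along the chromosomes the members fall into 5 groups, split where neighbours are over 100 kb apart. The group from H2bc13 to H2ac24 on chromosome 13 (118 kb) had a peak at 16 of 17 members, with 2.21 peaks per 10 kb against 0.0651 on the rest of the chromosome. The group from H2ac12 to H2bc11 (8.54 kb) had one at all 5 members, with 5.86 peaks per 10 kb. The group from H4c8 to H1f1 (233 kb) had one at 27 of 29, with 1.80 per 10 kb, and the testis pair H2bc1 and H2ac1 had 0 of 2. On chromosome 3, 9 of 10 members from H2ac21 to H2bc18 (50.3 kb) had one, with 1.39 peaks per 10 kb against 0.0435. Peaks filled 13.4% of the length of the densest group and 2.95% of the group on chromosome 3. The member share with a peak was close on both chromosomes, 48 of 53 (90.6%) and 9 of 10 (90.0%).

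**Figure D5:**
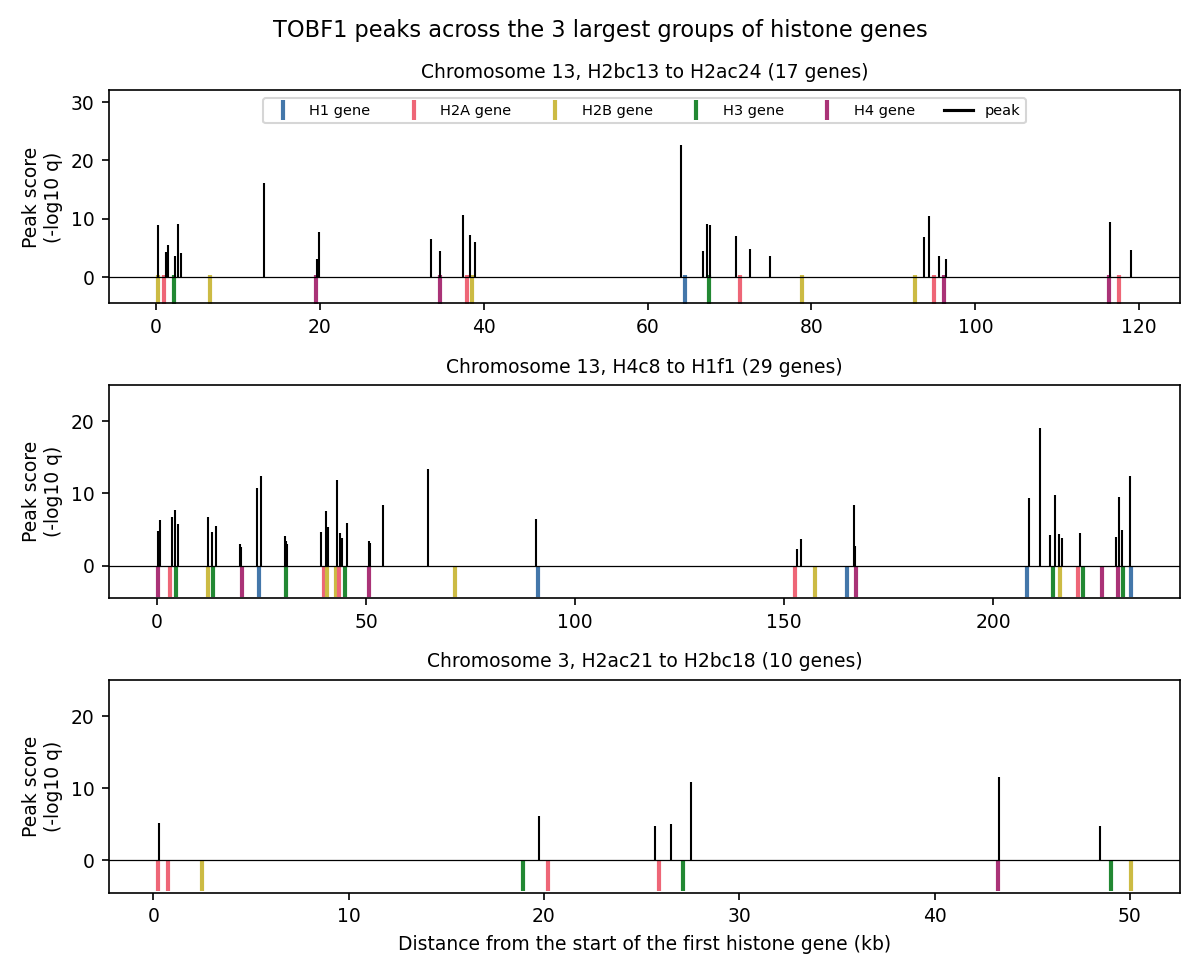
Peaks (black lines) and histone genes (ticks below at each gene's midpoint, coloured by type) across the 3 groups with 10 or more members, against distance in kb from the start of the first gene. The height of a line is the score, taken to be −log10 q. Peaks stand over the genes in all 3 groups, with few in the long stretches between them.

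Of 75 other protein-coding genes in both windows 4 had a peak (5.33%, against 2.67% of all protein-coding genes), namely the vomeronasal receptor genes Vmn1r208 (8.85), Vmn1r210 (5.26) and Vmn1r223 (4.41), and H4bc24 (4.57), which RefSeq also lists as Hist1h2br. H4bc24 thus bears an older histone name but not a symbol of the rule. Of 119 peaks in the windows, 75 lay at members, 4 at other protein-coding genes, 16 only at tRNA genes and 24 elsewhere. Within the groups only 5 peaks were not at a member, and 3 of them scored above the median of the whole list: 16.1 (6.21 kb from H4c11), 19.1 (2.65 kb from H1f2) and 13.3 (inside the long annotated H2bc6, 12.1 kb from its nearer end). Another of the 5, with a score of 8.45, also lay inside H2bc6, 1.53 kb from its nearer end. RefSeq gives H2bc6 an inner start near this peak, with a promoter window at bases 23585921 to 23586220. Only the outer ends of genes were counted.

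Lists of replacement histone variants, which are made outside S phase or in special cells, and of genes that serve histone supply were counted by the same 1 kb rule. Both had shares near that of all protein-coding genes, 2.67%, at which these short lists would hold few genes or none. With wider windows more of the variants had a peak, as given below. Of 18 listed variants 1 had a peak (5.56%, interval 0.141 to 27.3%). This was H4f16 on chromosome 6 (score 7.95), which encodes an H4 histone and may itself belong with the replication-dependent genes; among the other 17 variants 0 had one. H2ax, H2az1, H2az2, H3f3a, H3f3b, H1f0 and the testis gene H1f7 had none at an end, and a peak overlapped H3f3b away from its ends. Of 35 genes for histone transcription and mRNA processing, chromatin assembly and S phase entry 0 had a peak at an end (interval 0 to 10.0%). They include Npat, the coactivator of histone genes, Slbp, which binds the stem-loop, Casp8ap2, Lsm10, Lsm11, Hinfp, Ccne1 and Nasp. Peaks overlapped 3 of these genes away from the ends: Pou2f1, which encodes Oct1, E2f1 and Gon4l.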

How the data were processed

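TOBF1 binding was measured by ChIP-Seq in 1 library, with 1 input library for which no file was used. The submitters' processing notes name cutadapt, Bowtie2, MACS2 and bedtools and the mm10 build, without versions or settings. The deposited list gives 12181 peaks with a score each. No header names the unit of these scores; the authors' deposited values were taken as −log10 q from MACS2, since the lowest is 1.30. For depth, and for whether the input served as control, the sources used here give nothing. Left out were 169 peaks on scaffolds.

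Genes came from a RefSeq table of GRCm38.p6, whose chromosome positions are those of mm10, and strands and promoter sequences from a second RefSeq table of that build. Midpoints within 1 kb (inclusive) of a gene end were counted. The members, lists and motifs were chosen with earlier results of these data known, and genes of at most 1000 bp members over 2 kb apart, pairs of peaks and members, and averages over 500 bp were added as comparisons after seeing the data. All members with a peak, all testis-type and all H1 genes were to be named, and of other genes up to 5 per list. The lists were written as 19 and 38 symbols, of which 18 and 35 matched. Shares have exact 95% intervals. No test was made, since 1 library has no replicate and genes that share peaks are not replicates. Alternatives were score thresholds, windows of 500 bp, 2 kb and 5 kb, overlap in place of midpoints, merged peaks, nearest-member assignment, starts only and subsets of members. The counting was tested on simulated data. Scripts ran in Python 3.11.15 (pandas 2.3.3, NumPy 2.4.6, intervals from SciPy 1.17.1, plots from matplotlib 3.10.9).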

Additional observations from a re-analysis of the deposited data

How the results depend on the processing

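When only peaks of at least the list's median score counted, 12 members kept a peak (3 H1, 3 H2A, 3 H2B, 1 H3 and 2 H4), at 10 distinct peaks with a median score of 11.2, of which 5 lay downstream and 0 upstream of the nearest member. In that setting 204 protein-coding genes, 0 other genes of the regions and 0 replacement variants had a peak. With scores of 5 or more, 46 members had one (73.0%), against 453 of all protein-coding genes (2.07%). These members had 40 distinct peaks, 20 of them downstream, and 2 other genes of the regions had a peak. The 500 bp window gave 53 members (84.1%), 330 protein-coding genes (1.51%) and 1 other gene of the regions. The 2 kb window gave 59 members, now with 1 testis-type gene, and 1011 protein-coding genes (4.62%). It also gave 3 of 18 replacement variants and 2 of 35 regulators of histone supply. The 5 kb window gave 61 members, again with 1 testis-type gene, and 1964 protein-coding genes (8.98%). It also gave 10 of 75 other genes of the regions, 5 of 18 replacement variants and 2 of 35 regulators. Merging peaks within 1 kb left 34 distinct peaks at 51 members (81.0%), against 539 of all protein-coding genes (2.46%). Of the 34 peaks, 13 lay downstream and 7 upstream of the nearest member (35 and 6 as reported). The cause was not tested. Taking chromosome 3 alone left 9 members, from fewer genes. The other 90 recomputed values stayed within 1.5 times the reported one. Without the testis-type genes the share was 95.0%, and with starts only 51 of 58 members had a peak. No paired analysis was possible because only 1 library has a peak list. The share of members with a peak thus depends on weak peaks, and the unknown depth limits how firmly a missing peak can be read.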

Other observations

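Transfer RNA genes lie among the histone genes of chromosome 13, and some had peaks as well. Of the 104 tRNA genes between 21 and 24 Mb, 23 had a peak by the same 1 kb rule, against 2.67% of all protein-coding genes. These were 17 distinct peaks, of which 1 lay at a histone or other protein-coding gene too. The share over all tRNA genes is not given here, so the count cannot be called particular to this region.

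Both histone pseudogenes carried by the chromosome 13 region under these names were looked at. H2ac14 had no peak within 1 kb. H2ac5-ps, between H3c3 and H2bc3, had 3, the highest at 9.77, all shared with these neighbours.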
